A study of Mus musculus with 4 samples.

Results

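Fatty acid oxidation and peroxisome genes were examined in mouse white adipose tissue after feeding rich in fat (HFD) or low in it (LFD). They were the 45 genes of a fixed list, found through the gene name that the array's annotation gives to each probe that is not a control. All 45 were on the array, of 27617 gene names in all, with 65 probes on 92 spots. Each had a probe that passed the filter on dim signals, well above background on the pair of arrays of either diet, and was tested, as were 17739 genes in all. The animals were female C57BL/6 mice, a common inbred strain, with no genetic change named. They were 8 weeks old when the diets started and ate High fat diet 32 (HFD) or the standard chow CE2 (LFD) for 18 weeks. RNA of each sample, described as tissue mixed from 3 mice, was labelled with Cy3 and put on 1 array, with 2 arrays per diet. The labels do not say if the 2 samples fed alike were pooled from separate mice, so p-values measure only how far these samples differ, which may be technical spread. The fat depot is not named, and pooled whole tissue holds adipocytes, immune cells, vessels and lining cells. A lower signal in whole tissue cannot tell fewer cells of a type apart from less RNA per cell.

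Fatty acids are burned in mitochondria and, for very long, branched or otherwise unusual chains, first in peroxisomes. Long chains cross into mitochondria as carnitine esters, and a spiral of dehydrogenation, hydration, dehydrogenation and thiolysis then shortens them, handing electrons to the respiratory chain. White adipocytes mainly store and release fatty acids, whereas brown and beige adipocytes burn them for heat. Many of these genes are known targets of the PPAR nuclear receptors and of the coactivator PGC-1 alpha, which Ppargc1a encodes.

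Promoter sequence is shown for 4 genes, as Cpt1a rose and Acadvl, Acot4 and Pex11a fell in HFD by the test given further on. Each stretch is the 250 bases before the annotated gene start, 5′ to 3′ on the gene's strand, from RefSeq on build GRCm38.p6. Capitals mark the letters AGGTCA or their reverse complement TGACCT, the hexamer that nuclear receptors such as PPAR and ERR can bind.
Cpt1a, chr19:3323051-3323300, plus strand: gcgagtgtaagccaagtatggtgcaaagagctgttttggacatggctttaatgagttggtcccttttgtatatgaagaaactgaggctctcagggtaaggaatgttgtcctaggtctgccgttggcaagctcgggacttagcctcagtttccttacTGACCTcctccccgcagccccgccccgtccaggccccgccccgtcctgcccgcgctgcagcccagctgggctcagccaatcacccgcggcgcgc
Acadvl, chr11:70015429-70015678, minus strand: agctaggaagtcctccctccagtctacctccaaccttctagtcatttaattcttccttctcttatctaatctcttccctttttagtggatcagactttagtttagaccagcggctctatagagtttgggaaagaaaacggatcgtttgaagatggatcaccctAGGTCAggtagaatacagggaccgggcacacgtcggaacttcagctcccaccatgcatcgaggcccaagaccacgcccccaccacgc
Acot4, chr12:84038129-84038378, plus strand: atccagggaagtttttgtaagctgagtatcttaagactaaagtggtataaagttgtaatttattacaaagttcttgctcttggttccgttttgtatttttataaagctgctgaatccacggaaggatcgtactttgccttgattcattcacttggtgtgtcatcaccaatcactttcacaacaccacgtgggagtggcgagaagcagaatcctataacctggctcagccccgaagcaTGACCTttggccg
Pex11a, chr7:79743132-79743381, minus strand: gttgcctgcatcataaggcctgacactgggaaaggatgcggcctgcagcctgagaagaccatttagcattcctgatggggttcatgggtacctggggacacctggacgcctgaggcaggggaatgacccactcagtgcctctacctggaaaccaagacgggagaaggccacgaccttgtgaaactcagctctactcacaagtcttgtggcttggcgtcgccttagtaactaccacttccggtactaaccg
The hexamer begins 94 bases before the start in Cpt1a, 87 in Acadvl and 13 in Acot4, and these letters are not in the window of Pex11a. Promoters were found for 38 of the 45 genes, and 5 of them (13.2%) held the hexamer on either strand: Acadm, Acadvl, Acot4, Cpt1a and Scp2. In windows of the same length it was present for 14.6% of 17492 protein-coding genes. A direct repeat of the hexamer with 1 base between its copies, the form named DR1 that PPAR favours, was in 0 of the 38, and in 0.0515% of protein-coding genes. The GC box GGGCGG was in 25 of 38 (65.8%), against 45.8% of protein-coding genes, and CCAAT in 19 of 38, against 39.5%. Both motifs were searched on either strand, and a match is a description of letters, not of a bound site.

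Levels are log2 signals relative to the 75th percentile of the same array, so 0 is that percentile, and 1 unit is a 2-fold step; levels of different probes are not comparable. HFD was compared with LFD in limma across all tested probes, with Benjamini-Hochberg adjustment over all of them and a threshold of 0.05. Of the 45 genes, 6 fell (13.3%) and 1 rose (2.22%) in HFD, while 5.61% of all tested genes fell and 5.74% rose. The genes that fell were Acadvl, Eci1, Phyh, Acot4, Pex6 and Pex11a, by 1.47- to 2.34-fold, and the gene that rose was Cpt1a, by 2.84-fold. With each array scaled to its median, 7 members fell and 1 rose, with 1334 genes lower and 852 higher against 995 and 1019 otherwise. Small differences mostly ran one way. The log2 change was below 0 for 40 of 45 (88.9%) members, against 47.8% of all tested genes, and both HFD arrays lay below both LFD arrays for 30 (66.7%), against 32.7%. For 5 members (11.1%) both HFD arrays lay above both LFD arrays, against 36.2%, so the diets did not overlap for 35 (77.8%), against 68.9%. These counts use the brightest tested probe of each gene. With the mean of a gene's probes, 39 members were below 0, and 28 had both HFD arrays below both LFD arrays. An unadjusted p under 0.05 was reached by 17 members (37.8%), against 34.9%, a share near that of all genes. By size alone, 1 member (Acot4) was at least 2-fold lower and 1 (Cpt1a) at least 2-fold higher, against 3.87% and 3.96% of all tested genes. The median log2 change was -0.25 over the members and 0.02 over all tested genes. All members share the same 4 arrays and are not independent, and no test was made of the list. These calls depended on every array and were lost when any 1 was left out. Such a fit keeps a single array of 1 diet, and a smaller share of all tested genes fell in each. The direction of the members depended less on any 1 array. With an array left out, 37 to 40 members were below 0, against 45.7% to 50.3% of all tested genes.

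**Figure D1:**
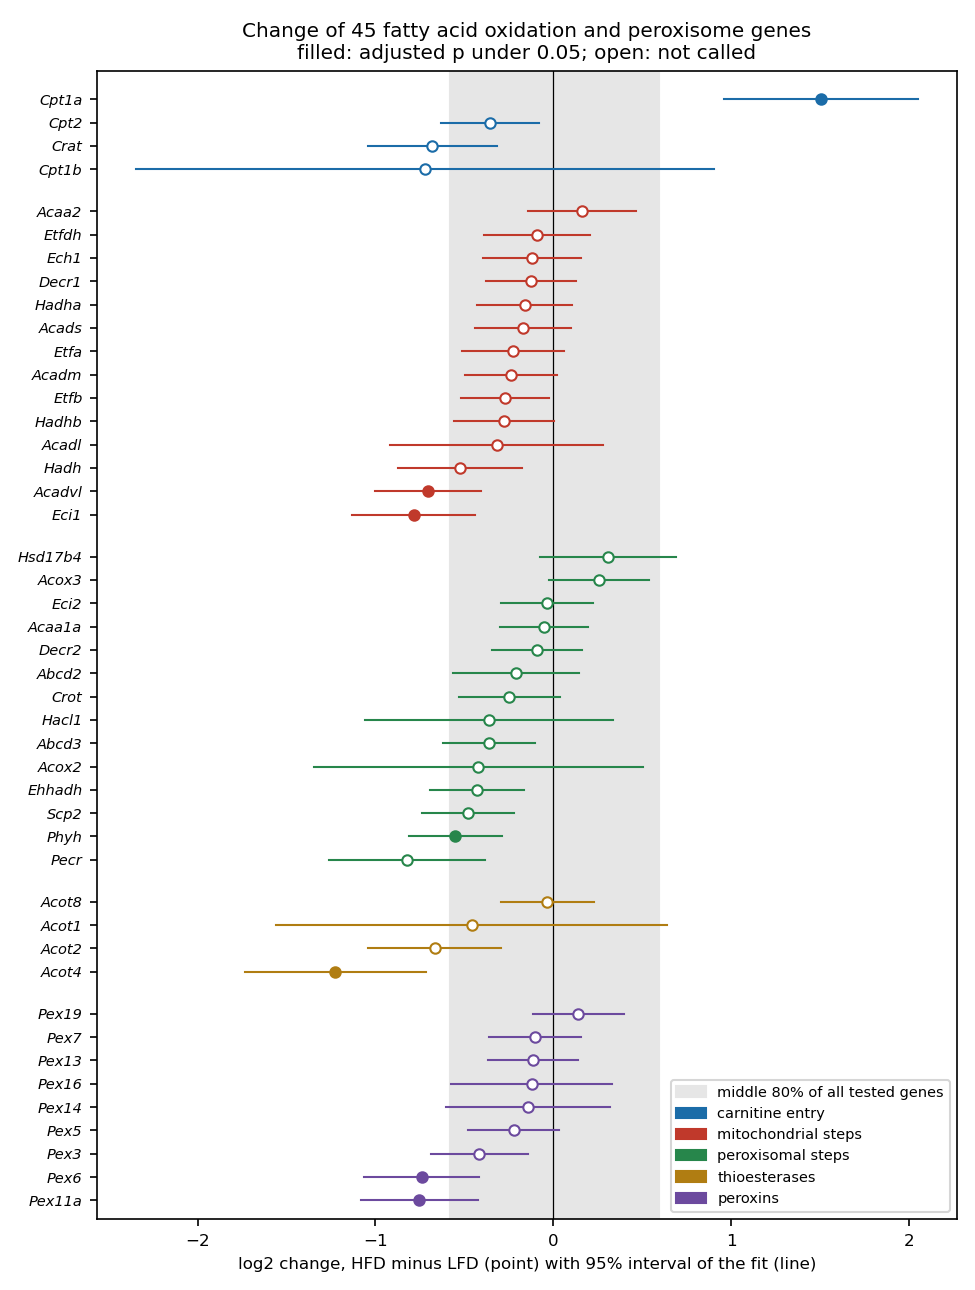
Log2 change between the diets (horizontal axis, HFD minus LFD) for each of the 45 genes by group, with the 95% interval of the limma fit; filled points passed an adjusted p of 0.05, and the grey band holds the middle 80% of all tested genes. Cpt1a lies far to the right at 1.50, whereas 40 of the 45 points lie left of 0.

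**Figure D2:**
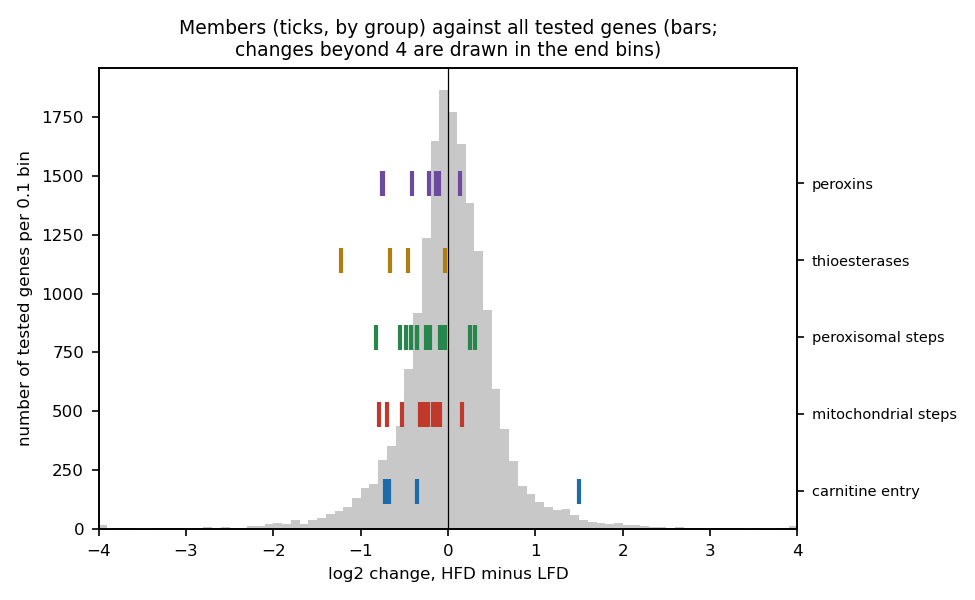
Log2 changes of the members (coloured ticks, a line for each group) over the distribution of all 17739 tested genes (grey bars, number of genes per bin of log2 change). Most ticks lie left of 0, and Cpt1a at 1.50 and Acot4 at -1.23 lie farthest out; the middle 80% of all genes runs from -0.58 to 0.60.

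Entry into mitochondria differed between its enzymes. Cpt1a, which encodes the liver-type carnitine palmitoyltransferase of the outer membrane and is the known control point inhibited by malonyl-CoA, was the member that rose. It read 1.19 and 0.76 in LFD and 2.63 and 2.33 in HFD, that is 0.98 ± 0.30 (SD, n = 2) and 2.48 ± 0.21 (SD, n = 2). Both HFD arrays thus lay well above both LFD arrays, at a log2 change of 1.50 (SE 0.20, adjusted p = 0.0290). This probe, at chr19:3385374-3385433 of build mm9, is printed on 10 spots of each array, and those spots varied by an SD of only 0.06 to 0.07 log2 units. A separate Cpt1a probe, at chr19:3384629-3384688, gave a log2 change of 1.52 (adjusted p = 0.0178) from levels of -1.96, -2.17, -0.44 and -0.64 on LFD 1 and 2 and HFD 1 and 2. The rise was therefore seen with either probe. Over the 15 alternative settings the log2 change of Cpt1a stayed between 1.29 and 1.72, and it passed in 10, with adjusted p from 0.00707 to 0.124.

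Cpt1b, the muscle-type form that brown adipocytes also use, did not pass (log2 change -0.72, SE 0.60, adjusted p = 0.434). Its levels were 0.32 and -1.40 in LFD and -1.26 and -1.25 in HFD, so LFD replicate 1 stood 1.72 above the other LFD array, and LFD replicate 2 lay below both HFD arrays. The interval of the difference between diets ran from -2.35 to 0.90. Leaving out LFD replicate 1 turned the log2 change to 0.14, and leaving out LFD replicate 2 made it -1.58 (adjusted p = 0.0480). The dimmer Cpt1b probe showed the same step between the LFD arrays, with -1.16 and -2.48 in LFD and -2.14 and -2.06 in HFD. Cpt2, on the inner membrane, re-forms the acyl-CoA from its carnitine ester. Its levels of 5.08 and 4.95 in LFD and 4.68 and 4.63 in HFD did not overlap, at a log2 change of -0.36 (adjusted p = 0.0959). Crat, which moves acetyl groups between carnitine and coenzyme A, had levels of 4.03 and 3.80 in LFD and 3.32 and 3.15 in HFD, and its log2 change of -0.68 just missed the threshold (adjusted p = 0.0524).

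**Figure D3:**
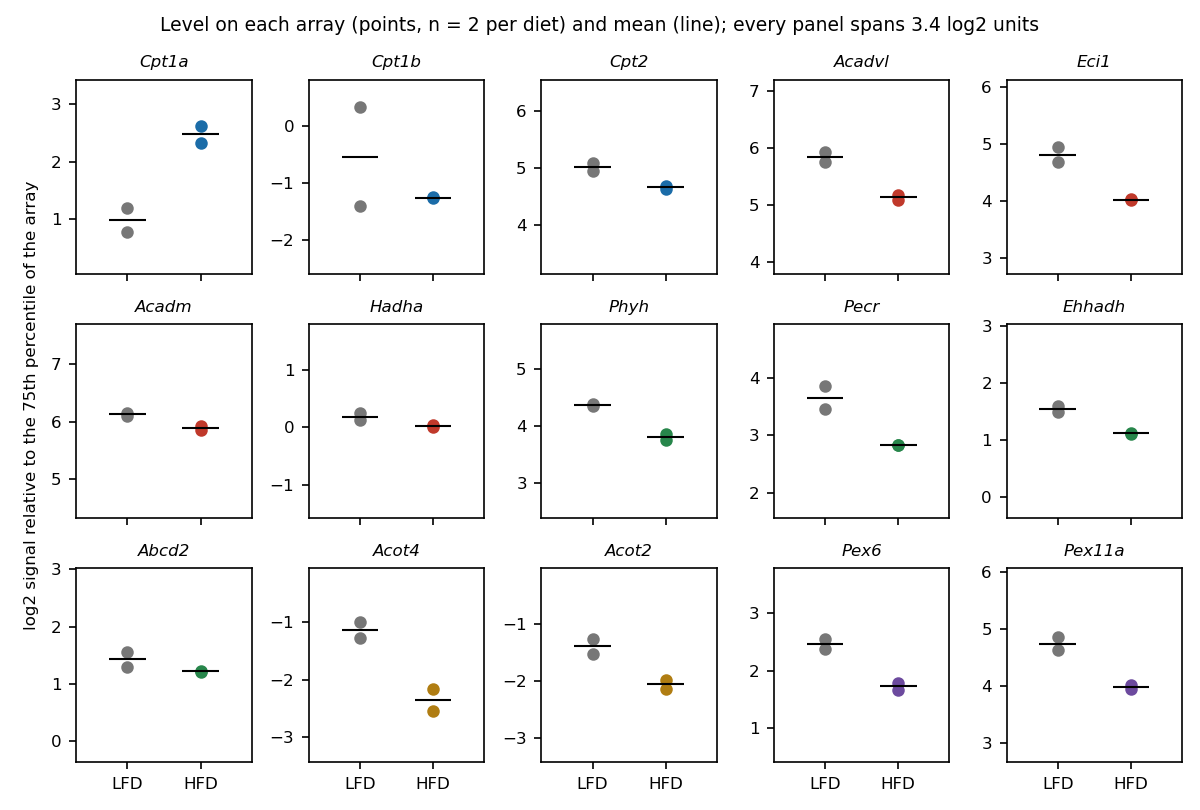
Levels of 15 members on each array (vertical axis, log2 signal relative to the 75th percentile of the array; points are arrays, lines are means of 2 arrays), with every panel spanning the same number of log2 units. Cpt1a is the panel in which HFD lies above LFD, and Cpt1b is the panel in which the LFD points lie far apart.

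In the mitochondrial spiral and its electron acceptors, 2 of 14 genes fell and none rose, against 5.61% and 5.74% of all tested genes. Both HFD arrays lay below both LFD arrays for 11, against 32.7% of all tested genes. The median log2 change was -0.23. The acyl-CoA dehydrogenases start each turn and differ in the chain length they accept. Acadvl, the enzyme for very long chains, had levels of 5.92 and 5.76 in LFD and 5.09 and 5.18 in HFD, 5.84 ± 0.11 against 5.13 ± 0.07 (SD, n = 2 each). HFD was thus 1.63-fold lower, well outside the spread of the replicates (log2 change -0.70, SE 0.11, adjusted p = 0.0370). Its probe lies at chr11:69823750-69823809 (mm9). The dehydrogenases for shorter chains differed by less: Acadm, for medium chains, had levels of 6.15 and 6.10 in LFD and 5.93 and 5.85 in HFD. Those groups did not overlap, but its log2 change of -0.24 did not pass (adjusted p = 0.169). Acadl, for long chains, had a log2 change of -0.32 with overlapping diets, and Acads, for short chains, one of -0.17.

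The trifunctional protein, built from Hadha and Hadhb, carries out the later steps for long chains. Hadha had levels of 0.13 and 0.25 in LFD and 0.01 and 0.04 in HFD, a log2 change of -0.16 (adjusted p = 0.308). Its interval, from -0.43 to 0.11, leaves room for a small difference either way. A further Hadha probe, matched to another transcript, gave -0.27, and the last was not well above background on any array. Hadhb had a log2 change of -0.28, and Hadh, the hydroxyacyl-CoA dehydrogenase of short chains, one of -0.53 with levels of 4.66, 4.39, 3.99 and 4.01 (adjusted p = 0.0741). Acaa2, the thiolase that releases acetyl-CoA, was the mitochondrial member above 0. Its levels were 4.85 and 4.68 in LFD and 4.88 and 4.98 in HFD, a log2 change of 0.16 (adjusted p = 0.355) that is small beside its interval of -0.14 to 0.47.

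Unsaturated fatty acids need further enzymes to reshape their bonds. Eci1, the mitochondrial enoyl-CoA isomerase, fell 1.72-fold from levels of 4.94 and 4.68 in LFD to 4.02 and 4.03 in HFD (log2 change -0.79, SE 0.13, adjusted p = 0.0391). Its probe is shown because its match spans far more of the genome than the probe's own 60 bases, as for a probe across an exon junction; coordinates are of build mm9.
Eci1 probe, chr17:24574515-24575912, plus strand: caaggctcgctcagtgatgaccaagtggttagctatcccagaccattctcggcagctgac
The dienoyl-CoA enzymes Ech1 and Decr1, in contrast, had log2 changes of -0.12 and -0.13, and neither passed. Electrons from the dehydrogenases reach ubiquinone through the flavoprotein of Etfa and Etfb and its oxidoreductase Etfdh. Etfb had levels of 6.46 and 6.46 in LFD and 6.17 and 6.21 in HFD, a tight difference of -0.27 (adjusted p = 0.125). Etfa and Etfdh had log2 changes of -0.23 and -0.09. None of the 3 passed.

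Peroxisomal oxidation genes had 1 of 14 lower and none higher, with a median log2 change of -0.30. Of all tested genes, 5.61% fell and 5.74% rose, so the calls were near that share. Both HFD arrays lay below both LFD arrays for 9 of the 14, against 32.7% of all tested genes. Phyh, which starts the alpha-oxidation of the branched phytanic acid, was the gene that fell. Its levels were 4.37 and 4.34 in LFD and 3.76 and 3.85 in HFD, a 1.47-fold difference (log2 change -0.55, SE 0.10, adjusted p = 0.0434; probe at chr2:4859629-4859689, mm9). Hacl1, the lyase of the same pathway, had a log2 change of -0.36 with overlapping diets, as its LFD arrays alone differed by 0.63. Pecr, an enoyl-CoA reductase that acts in chain elongation rather than breakdown, had the largest difference of the group. Its levels of 3.86 and 3.47 in LFD and 2.84 and 2.84 in HFD gave a log2 change of -0.82, which narrowly missed the threshold (SE 0.16, adjusted p = 0.0526). It passed in 5 of the 15 alternative settings. Scp2, which carries lipids and contains the thiolase of branched chains, was close to it, with 5.33 and 5.38 in LFD, 4.91 and 4.83 in HFD and a log2 change of -0.48 (adjusted p = 0.0533).

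The peroxisome has its own chain of oxidases, bifunctional enzymes and thiolases. Ehhadh, the bifunctional enzyme that acts mainly on straight chains and dicarboxylic acids, had levels of 1.60 and 1.49 in LFD and 1.11 and 1.12 in HFD (log2 change -0.43, adjusted p = 0.0664). The bifunctional enzyme for branched chains, Hsd17b4, went the other way without passing, from 5.03 and 5.34 to 5.51 and 5.48 (log2 change 0.31, adjusted p = 0.206). Acox3, an oxidase of branched chains, was also above 0, at 0.26 (adjusted p = 0.170), whereas Acox2, an oxidase of branched chains and bile acid precursors that was not well above background on HFD replicate 2, was at -0.42 with diets that overlapped. The thiolase Acaa1a had a log2 change of -0.05, with an interval from -0.30 to 0.20. Its other probes gave -0.02 and -0.01, although Acaa1a has a near-identical neighbour, Acaa1b, and their signals may not be separable. Eci2 and Decr2, which handle unsaturated chains, were at -0.04 and -0.09. Crot, which exports shortened chains as carnitine esters, was at -0.25 (adjusted p = 0.182).

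Transporters bring acyl-CoA into peroxisomes. Abcd3, which carries long and branched chains, had levels of 4.16 and 4.21 in LFD and 3.86 and 3.79 in HFD (log2 change -0.36, adjusted p = 0.0835). Its other probes gave -0.57 and -0.49, the same direction, and did not pass either. Abcd2, which favours very long and polyunsaturated chains, had probes of opposite sign. The brighter probe read 1.29 and 1.56 in LFD and 1.21 and 1.23 in HFD (log2 change -0.21, adjusted p = 0.319). The other, near the far end of the transcript at chr15:90976565-90976624, read 0.23 and 0.33 in LFD and 0.58 and 0.55 in HFD (log2 change 0.29, adjusted p = 0.127). No direction can be given for Abcd2. The brighter probe, whose match likewise spans far more than its length, is shown as the one whose direction the other did not share.
Abcd2 probe, chr15:91005118-91008671, minus strand: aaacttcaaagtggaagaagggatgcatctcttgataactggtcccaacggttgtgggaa

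Thioesterases split acyl-CoA into free fatty acid and coenzyme A, in the cytosol (Acot1), in mitochondria (Acot2) or in peroxisomes (Acot4 and Acot8). Acot4 was the member with the largest fall. Its levels were -0.998 and -1.28 in LFD and -2.17 and -2.56 in HFD, -1.14 ± 0.20 against -2.36 ± 0.28 (SD, n = 2 each), or 2.34-fold lower (log2 change -1.23, SE 0.19, adjusted p = 0.0356). This probe lies at chr12:85384821-85384880 (mm9). The dimmer Acot4 probe, at chr12:85384162-85384221, read -2.21 and -2.34 in LFD and -2.65 and -2.48 in HFD, a log2 change of only -0.29 (adjusted p = 0.165). The size of the Acot4 fall thus rests on the brighter probe, although the mean of both still passed. Acot2 had levels of -1.26 and -1.52 in LFD and -1.98 and -2.14 in HFD (log2 change -0.67, adjusted p = 0.0566). Acot1, its near-identical neighbour on chromosome 12, had overlapping diets and a log2 change of -0.46, with LFD arrays 1.01 apart, and cross-reaction between their probes was not tested. Acot8 was at -0.03, with an interval from -0.30 to 0.23.

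Peroxins build the organelle, and 2 of 9 fell while none rose, against 5.61% and 5.74% of all tested genes. Their median log2 change was -0.14. Pex11a, which drives the elongation and division of peroxisomes and is a known PPAR alpha target, had levels of 4.62 and 4.85 in LFD and 3.94 and 4.02 in HFD. That is 4.74 ± 0.16 against 3.98 ± 0.05 (SD, n = 2 each), or 1.69-fold lower (log2 change -0.75, SE 0.12, adjusted p = 0.0386). Its probe, at chr7:86882223-86882282 (mm9), is also printed on 10 spots per array, with an SD of 0.03 to 0.05 among them. Pex6, an ATPase that recycles the import receptor, fell 1.67-fold, from 2.55 and 2.38 to 1.65 and 1.79 (log2 change -0.74, SE 0.12, adjusted p = 0.0380; probe at chr17:46861840-46861899). The receptors for matrix proteins differed less: Pex5 was at -0.22 and Pex7 at -0.10. A dim Pex5 probe gave 0.14, the opposite sign. Of the docking proteins, Pex14 was at -0.14 and Pex13 at -0.11. A Pex13 probe matched to another transcript, at chr11:23553748-23553807, read 1.06 and 1.04 in LFD and 0.41 and 0.48 in HFD and passed (log2 change -0.61, adjusted p = 0.0364), so the Pex13 probes differ in size. Among the proteins that insert peroxisomal membrane proteins, Pex3 was at -0.42 (adjusted p = 0.0722), Pex16 at -0.12 and Pex19 at 0.14.

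Several probes per gene show whether its probes gave the same direction. They read the same samples on the same arrays, so they cannot tell a diet difference from one between samples. Of the 15 members with more than 1 tested probe, 2 (Abcd2 and Pex5) had probes of opposite sign, while 31.0% of all such genes did. Of the 18 tested member probes other than the brightest of its gene, 14 had a log2 change below 0, and 1 fell and 1 rose by the test.

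The LFD arrays lay more than 0.25 apart for 15 of 45 members (33.3%), and the HFD arrays for 6 (13.3%). Over the 17736 tested genes with a value on every array those shares were 33.8% and 19.8%, so wider LFD gaps were common to the arrays. For 14 members (31.1%) the gap between the LFD arrays was larger than the difference between the diets, against 35.0% of those genes. LFD replicate 1 was the higher LFD array for 28 members (62.2%), against 40.4%. Cpt1b had the widest gap, followed by Acot1 (1.01), Acox2 (-0.87), Hacl1 (0.63) and Acadl (0.53), each given as LFD replicate 1 minus replicate 2. LFD replicate 1 was also the higher for 7 of 8 brown and beige fat markers, by 2.27 for Ucp1, 2.47 for Elovl3, 1.47 for Cox7a1, 1.05 for Cox8b, 0.97 for Cidea, 0.64 for Dio2 and 0.10 for Ebf2. The remaining marker, Prdm16, had a gap of -0.16. Fabp3, a fatty acid carrier of muscle and brown fat, is in neither marker list. It had the widest gap, 3.24, of the PPAR targets and regulators given further on, whereas Ucp3 of that list had one of -0.88. Cpt1b is also the form of skeletal muscle, and of 8 muscle markers 4 were higher and 4 lower in LFD replicate 1, with gaps from -0.84 for Acta1 to 0.48 for Myh4. The part of brown or beige fat or of muscle cells in the Cpt1b gap was not tested.

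**Figure D4:**
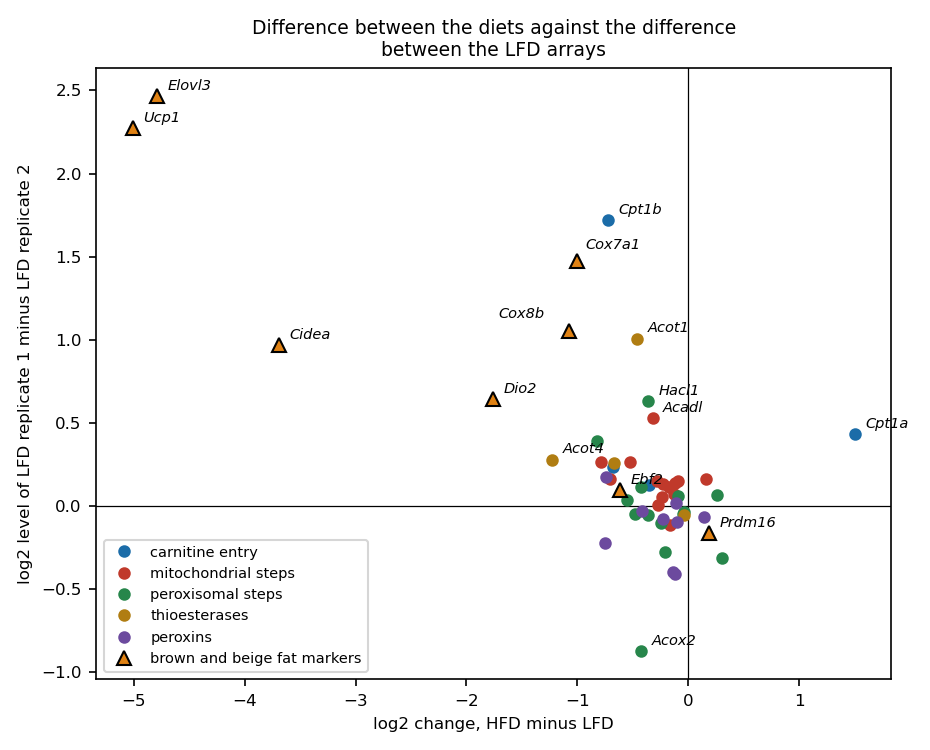
Log2 change between the diets (horizontal axis) against the difference between the LFD arrays (vertical axis, log2 level of replicate 1 minus replicate 2) for the 45 members (circles, by group) and 8 brown and beige fat markers (triangles). Cpt1b lies at 1.72 on the vertical axis, near Cox7a1 at 1.47, whereas most members lie close to 0.

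Markers of other cells moved with the diet. For comparison with the counts below, 5.74% of all tested genes rose, 5.61% fell and 34.9% had an unadjusted p under 0.05 by limma. Macrophage markers rose for 9 of 10 genes, and their summed level was 41.4 and 36.8 in LFD and 101 and 102 in HFD. A sum adds the signals of a list in units of the 75th percentile, so its brightest probes weigh most. As levels of different probes are not comparable, it does not measure the amount of a cell type. Mesothelium markers fell for 7 of 7, with sums of 26.1 and 27.3 against 10.7 and 8.54. Brown and beige fat markers fell for 4 of 8, with sums of 135 and 57.4 against 16.6 and 21.4. Of 8 adipocyte markers 1 fell by limma, the secreted factor Retn, and none rose, with 4 at an unadjusted p under 0.05. The log2 change was below 0 for 5 of them and above 0 for 3. Lep had the largest, 2.18, from 2.81 and 4.32 in LFD to 5.72 and 5.76 in HFD, and missed the threshold (adjusted p = 0.0729). The adipocyte marker sums were 1258 and 1351 in LFD and 1189 and 1292 in HFD. Adipoq (7.68 and 7.80 in LFD, 7.38 and 7.47 in HFD) was bright on every array. Skeletal muscle markers (0 of 8 called by limma, 4 at an unadjusted p under 0.05) had sums of 2.42 to 4.06, and hepatocyte markers (0 of 4 measured called by limma, 0 at an unadjusted p under 0.05) sums of 1.43 to 9.09. The part of changed cell makeup in the members' results was not tested.

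Genes around the pathway were counted from lists chosen with earlier results in view. Of 21 measured further genes of fatty acid oxidation (24 listed), 2 fell and none rose, against 5.61% and 5.74% of all tested genes. Their median log2 change was -0.20. Acacb, whose product malonyl-CoA inhibits the Cpt1 enzymes, had levels of 4.31 and 4.57 in LFD and 1.66 and 1.85 in HFD (adjusted p = 0.0137). Acad10, a dehydrogenase relative, had a log2 change of -1.03 (adjusted p = 0.0320). Slc25a20, which carries acylcarnitines across the inner membrane, was at -0.20 (adjusted p = 0.455). Of 17 further peroxins and peroxisomal genes, 1 fell, the membrane channel Pxmp2 (log2 change -0.98, adjusted p = 0.0458), and none rose. That is near the 5.61% of all tested genes that fell. The peroxisomal antioxidant enzyme Cat was at -0.35 (adjusted p = 0.131).

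Of 16 PPAR targets and regulators, 1 rose and 1 fell. Those counts are near the shares of all tested genes, of which 5.74% rose and 5.61% fell. Angptl4, a lipase inhibitor and PPAR target, rose from 6.80 and 6.38 to 7.60 and 7.82 (log2 change 1.12, adjusted p = 0.0395). Ppargc1a fell from -0.40 and -0.39 to -1.46 and -1.43 (log2 change -1.05, adjusted p = 0.0172). Ppara, the receptor best known for driving these genes in liver, had levels of -0.08 and -0.82 in LFD and -1.73 and -1.88 in HFD, a difference that missed the threshold (log2 change -1.35, adjusted p = 0.0555). The PPAR targets Plin2 (0.73), Pdk4 (-0.13) and Ucp3 (-1.40) did not pass. The citric acid cycle, which burns the acetyl-CoA that the spiral makes, had 6 of 16 genes lower and none higher, against 5.61% and 5.74%. All 16 log2 changes lay below 0, against 47.8% of all tested genes. Their median was -0.46, against -0.23 for the mitochondrial steps above, and the difference between these lists was not tested.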

How the data were processed

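The authors deposited 1-colour Agilent scanner output, in which each spot's brightness is a linear intensity; Feature Extraction had applied spatial and multiplicative detrending, with its further background correction off, per the file headers (version 11.0.1.1, or 11.5.1.1 per the submitters' processing notes). In the value table they deposited, each number is a ratio, the processed signal over its array's 75th percentile, as division showed. Here log2 processed signal minus that percentile (main setting) was averaged over spots of a probe, without spots flagged as outliers (60 to 115 per array). No spot was saturated, and 21312 to 27937 probes per array were well above background, fewest on HFD replicate 2. The 26057 probes that stood well above background in both samples of either diet entered limma 3.58.1 (R 4.3.3, lmFit and eBayes, two-sided). A gene is its brightest tested probe. Probe coordinates are in mm9 as the files give them. No annotation of that build was used here, so exon and UTR positions are not given. Promoters and updated symbols came from RefSeq on GRCm38.p6. The number of arrays limits the precision. All 4 arrays shared 1 slide and 1 scan. The procedure was tested on simulated data. The changes added there were larger than those of most members, so it does not measure the recovery of smaller ones.

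Values by array are given for members past the threshold, the 2 members of each group with the largest change, and a fixed panel; further members were added after their values were seen. Members and lists were chosen with earlier results of these data known. Members carry no probe added through RefSeq accessions, as none was found.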

Additional observations from a re-analysis of the deposited data

How the results depend on the processing

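Depth of signal was sufficient for 44 of 45 members on all arrays, Acox2 being the exception; the number of arrays limits the rest. Against 6 members lower and 1 higher, normexp background correction gave 10 and 1. A filter to probes well above background on all arrays gave 13 and 1, and eBayes with trend and robust 15 and 1. The share of all tested genes that fell grew too, from 5.61% to 6.98%, 8.85% and 10.2%, in that order. Without a filter on dim probes limma gave 0 lower and 0 higher, with 15 at an unadjusted p under 0.05. Of all 27617 genes tested that way, it likewise called 0 lower and 0 higher. With the replicate block, 1 was lower (Acot4) and 1 higher (Cpt1a), while 1.17% of all tested genes fell. The deviations of same-numbered arrays from their diet means correlated at -0.0046 across probes. The labels do not say if same-numbered samples share more than the number, and this correlation cannot decide it. Leaving out 1 array gave 0 to 2 lower and 0 higher. The cause was not tested. The other settings were quantile or median scaling, the deposited table, averaging a gene's probes, keeping flagged spots, and adjustment over 1 probe per gene. They gave 6 to 8 members lower and 1 higher, while 5.33% to 7.52% of all tested genes fell. Probes added through RefSeq accessions numbered 0, and a slide block could not be fitted, as there was 1 slide. None of the 7 called members passed when any 1 array was left out, but each kept its direction in all 15 alternatives. The sign turned in 1 alternative each for Abcd2, Acot1, Acot8, Acox2, Cpt1b, Eci2, Pex14 and Pex16, none of them called.

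The median log2 change of all members was -0.23 with normexp, -0.29 with quantile scaling, -0.34 with median scaling and -0.27 with the mean of a gene's probes, and -0.26 to -0.21 with 1 array left out. That of the peroxisomal steps was -0.18 with normexp, -0.39 with median scaling, -0.25 with the filter on all arrays and -0.32 to -0.16 with 1 array left out. With median scaling the mitochondrial steps were at -0.32 and the peroxins at -0.23. With 1 array left out, the medians ran from -0.61 to -0.077 for carnitine entry, -0.27 to -0.18 for the mitochondrial steps, -0.88 to -0.30 for the thioesterases and -0.33 to -0.12 for the peroxins. No median changed sign.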
